A study of Mus musculus with 37 samples.

Results

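The 8 genes described here encode 3 enzymes of glucose synthesis (Pck1, G6pc and Fbp1), 2 sodium-coupled glucose carriers (Slc5a1 and Slc5a2) and 3 facilitative glucose transporters (Slc2a1, Slc2a2 and Slc2a4). They were taken by symbol from 32108 genes in the deposited count table, and all 8 passed the filter on low counts in each fit. RNA on the ribosomes of mouse podocytes, the epithelial cells that cover the capillaries of the kidney filter, had been pulled down by translating ribosome affinity purification (TRAP) before sequencing. Labels give the strain C57BL/6 throughout. In the type 2 model, eNOS-/- db/db mice (5 libraries at 3 months, 3 at 6 months) were compared with eNOS-/- controls (5 and 4 libraries), so both arms lack the endothelial nitric oxide synthase and the diabetic arm is also db/db, a mutation of the leptin receptor gene. The type 1 model set mice given streptozotocin (STZ), a toxin of insulin-producing cells, against mice without STZ at 3 weeks (age 3 months, 5 diabetic and 4 control libraries) and at 24 weeks (age 8 months, 5 and 5 libraries). In that model drug and diabetes effects cannot be told apart. A single library of total RNA from a whole kidney of an eNOS-/- control at 3 months completes the series. The names of the deposited tables point to a Cre that is active in podocytes. Whether replicates are different animals is not labelled. The p-values here reflect only how far libraries spread within groups, a spread estimated jointly over all groups of a fit.

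The kidney makes glucose as well as reclaiming it from the filtrate, and both tasks are known from the proximal tubule. Gluconeogenesis builds glucose from lactate, glutamine and glycerol. Pck1, the cytosolic phosphoenolpyruvate carboxykinase, commits carbon to the pathway, Fbp1, fructose-1,6-bisphosphatase, removes a phosphate midway, and G6pc, the catalytic subunit of glucose-6-phosphatase, releases free glucose. Filtered glucose enters tubule cells with sodium through SGLT2 (Slc5a2) in the early proximal tubule and SGLT1 (Slc5a1) further along, and leaves towards the blood through GLUT2 (Slc2a2). GLUT1 (Slc2a1) is a widely expressed carrier, and GLUT4 (Slc2a4) is the insulin-responsive carrier known from muscle and fat that has also been described in podocytes. Insulin represses the genes of Pck1 and G6pc, whereas glucagon acting through cyclic AMP, and acidosis in the case of renal Pck1, raise them.

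The 250 bases upstream of the RefSeq start (GRCm38.p6) are shown for the 4 members called in the type 1 model at 3 weeks, because Pck1, G6pc and Fbp1 were lower there and Slc2a2 was higher. RefSeq promoter entries matched 6 of the 8 members. The windows of Pck1 and G6pc run past the gene starts given with the counts (173153048 and 101367561). Part of each of these 2 windows therefore lies inside the counted gene. Capitals mark a cyclic AMP response element half-site (CGTCA) or a hepatocyte nuclear factor 1 half-site (GTTAAT), on either strand, and positions count back from -1, the base before the start.
Pck1, chr2:173152823-173153072, plus strand: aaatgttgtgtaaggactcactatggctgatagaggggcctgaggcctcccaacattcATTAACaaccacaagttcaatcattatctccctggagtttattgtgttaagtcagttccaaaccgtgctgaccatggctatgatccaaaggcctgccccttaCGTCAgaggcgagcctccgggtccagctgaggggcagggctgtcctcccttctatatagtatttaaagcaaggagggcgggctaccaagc
G6pc, chr11:101367466-101367715, plus strand: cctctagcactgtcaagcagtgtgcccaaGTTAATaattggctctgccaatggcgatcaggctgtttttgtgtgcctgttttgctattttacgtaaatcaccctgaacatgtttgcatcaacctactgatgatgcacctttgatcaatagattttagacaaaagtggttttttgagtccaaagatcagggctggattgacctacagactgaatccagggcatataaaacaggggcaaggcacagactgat
Fbp1, chr13:62888283-62888532, minus strand: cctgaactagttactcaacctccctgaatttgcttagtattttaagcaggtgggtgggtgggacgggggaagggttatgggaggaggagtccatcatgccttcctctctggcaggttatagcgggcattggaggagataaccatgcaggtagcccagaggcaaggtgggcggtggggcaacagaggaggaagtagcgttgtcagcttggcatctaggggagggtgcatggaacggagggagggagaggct
Slc2a2, chr3:28697653-28697902, plus strand: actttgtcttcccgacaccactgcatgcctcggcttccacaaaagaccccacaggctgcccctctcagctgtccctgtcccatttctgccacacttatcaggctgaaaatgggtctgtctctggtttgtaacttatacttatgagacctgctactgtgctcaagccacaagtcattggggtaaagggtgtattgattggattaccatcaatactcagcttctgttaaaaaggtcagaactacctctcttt
Pck1 held CGTCA at -90 to -86 and the reverse complement of GTTAAT at -192 to -187. G6pc held GTTAAT at -221 to -216. The forkhead core TGTTT, searched on both strands, stood at 4 places in G6pc, at -188 to -184, -174 to -170, -141 to -137 and -25 to -21, and the last of these shares bases with a TATA box (TATAAA, -29 to -24). Neither half-site was found in the windows of Fbp1 and Slc2a2. Of 32851 mouse promoters of this length, 17.8% held CGTCA, 6.43% GTTAAT, 46.4% TGTTT and 12.4% TATAAA. These matches describe letters only and are no evidence of binding.

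All 8 genes are protein coding, and their positions in the tables were those of GRCm38. Pck1 lies on chromosome 2 (173153048 to 173159273), G6pc on chromosome 11 (101367561 to 101377903) and Fbp1 on chromosome 13 (62864753 to 62888282). Slc5a1 lies on chromosome 5 (33104219 to 33162870) and Slc5a2 on chromosome 7 (128265657 to 128272430). Slc2a1 lies on chromosome 4 (119108711 to 119137983), Slc2a2 on chromosome 3 (28697903 to 28731359) and Slc2a4 on chromosome 11 (69942539 to 69948188). In the GENCODE annotation Slc5a2 overlaps the protein-coding gene BC017158 on the other strand, Slc2a2 overlaps the antisense gene 1700112D23Rik, Slc2a1 overlaps Mir1957a and the antisense genes Gm12867 and Gm12868, and Slc5a1 overlaps 2 pseudogenes. These overlaps are of whole gene spans, and whether exons are shared was not examined. No source used here says whether counting respected strand. Where these 4 genes share exon bases with opposite-strand partners, the origin of reads there cannot be told apart.

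TRAP libraries held 6702120 to 37786025 counts and the kidney library 28033680. No member was at 0 in any library, and the lowest count was 70, for Slc2a4. The labelled cell type held in the defining podocyte genes: Nphs1, Wt1 and Podxl were 113, 135 and 65.4 times higher in TRAP of 3-month type 2 controls than in kidney. Of 22 proximal tubule markers none was at 0 in any library. Their summed level in TRAP controls ran from 11424 to 19650 CPM (read counts scaled to library size), against 34569 CPM in kidney. Of the other lists, no endothelial or loop, distal and collecting duct marker was at 0 anywhere, whereas 1 of 6 mesangial and smooth muscle, 2 of 6 macrophage, 4 of 5 adipocyte and 5 of 5 erythroid markers were at 0 in some TRAP library. Nos3, which encodes eNOS, was counted at 2.08 to 11.6 CPM across the eNOS-/- TRAP libraries, and Lepr at 1.11 to 3.72 CPM across all type 2 TRAP libraries. Which parts of these genes the reads cover was not examined here, so neither count checks its label. Some libraries stand apart and are named beside the results they touch. In the type 1 model at 3 weeks, the summed podocyte markers were 10999 to 12033 CPM in diabetic libraries 1 to 3 and 19888 to 21748 CPM in libraries 4 and 5. Control library 2 at 3 weeks was lower still, at 10898 CPM, and the other controls were at 17093 to 24643 CPM. At 24 weeks the podocyte sums were 9450 to 27013 CPM in controls and 5285 (library 3) to 24885 CPM in diabetic libraries. At 6 months of type 2, diabetic library 3 had the fewest counts of the series (6702120) and the lowest podocyte sum (3398 CPM). At 3 months, diabetic libraries 4 and 5 were at 16144 and 15960 CPM, against 27582 to 29511 CPM in the other 3.

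Per length, the enzymes of glucose synthesis were the most abundant members. The median over the 36 TRAP libraries was 454 FPKM (read counts scaled to gene length and library size) for Pck1, 140 FPKM for Fbp1 and 52.2 FPKM for G6pc. Among carriers the median was 29.0 FPKM for Slc5a2, 10.7 FPKM for Slc2a2, 7.21 FPKM for Slc5a1 and 6.69 FPKM for Slc2a1. Slc2a4 was lowest at 3.11 FPKM.

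Setting TRAP beside whole kidney asks how far the pull-down depleted RNA of other cells. Every member was lower in TRAP than in kidney, and the genes known from the proximal tubule were depleted further than Slc2a1 and Slc2a4. In all 5 TRAP libraries of 3-month type 2 controls each of the 8 lay under the kidney library, as did 32.1% of the 17180 genes tested. Pck1 was at 1222 ± 423 CPM (SD, n = 5) in TRAP and at 3775 CPM in kidney (95% Poisson interval 3752 to 3798), a ratio of 3.09. Slc2a2 was at 52.9 ± 6.71 CPM against 160 CPM (155 to 165), a ratio of 3.00. Ratios of 2.54 for G6pc, 2.54 for Fbp1, 2.48 for Slc5a1 and 1.99 for Slc5a2 followed. GLUT4 and GLUT1 were nearest to their kidney level: Slc2a4 was at 9.56 ± 1.90 CPM against 15.3 CPM (13.9 to 16.9), a ratio of 1.57, and Slc2a1 at 20.7 ± 3.81 CPM against 27.5 CPM (25.6 to 29.5), a ratio of 1.32. The median ratio of the members was 2.51. With 1 kidney library there is no test, the intervals cover counting error only, and the kidney library differs from TRAP both in the pull-down and in the kind of RNA labelled (total against polyA).

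**Figure D1:**
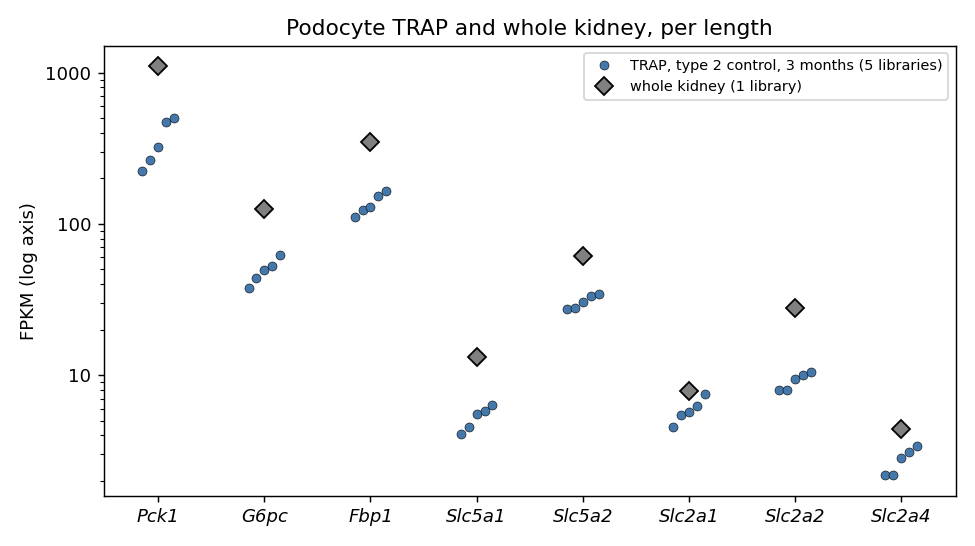
FPKM on a log axis for each of the 8 genes, with points for the 5 TRAP libraries of type 2 controls at 3 months (sorted by value) and a diamond for the single whole-kidney library. The diamond lies above all 5 points for every gene, by a ratio from 1.32 (Slc2a1) to 3.09 (Pck1).

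Levels were also set against the tubule markers. The 21 proximal tubule markers other than Kap were summed as a reference. Kap, a highly abundant androgen-regulated tubule gene, was left out after its fall in diabetic libraries had been seen. In the kidney library Slc2a1 was 0.104% and Slc2a4 0.0581% of that sum. In the 5 TRAP libraries Slc2a1 was 0.139 to 0.228% and Slc2a4 0.0781 to 0.0957%, all above kidney. Slc5a2, a carrier of the proximal tubule, was also above kidney in all 5 (0.67% in kidney and 0.701 to 0.937% in TRAP). Fbp1 (2.24% in kidney) and Slc5a1 (0.205%) lay inside their TRAP ranges of 1.85 to 2.26% and 0.173 to 0.228%. Pck1 was 14.3% in kidney and 8.16 to 13% in TRAP, and Slc2a2 was 0.605% and 0.418 to 0.492%, so both lay under kidney in every TRAP library. G6pc also lay under kidney in all 5, at 0.969 to 1.1% in TRAP. How much of each member's RNA came from podocytes was not tested.

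**Figure D2:**
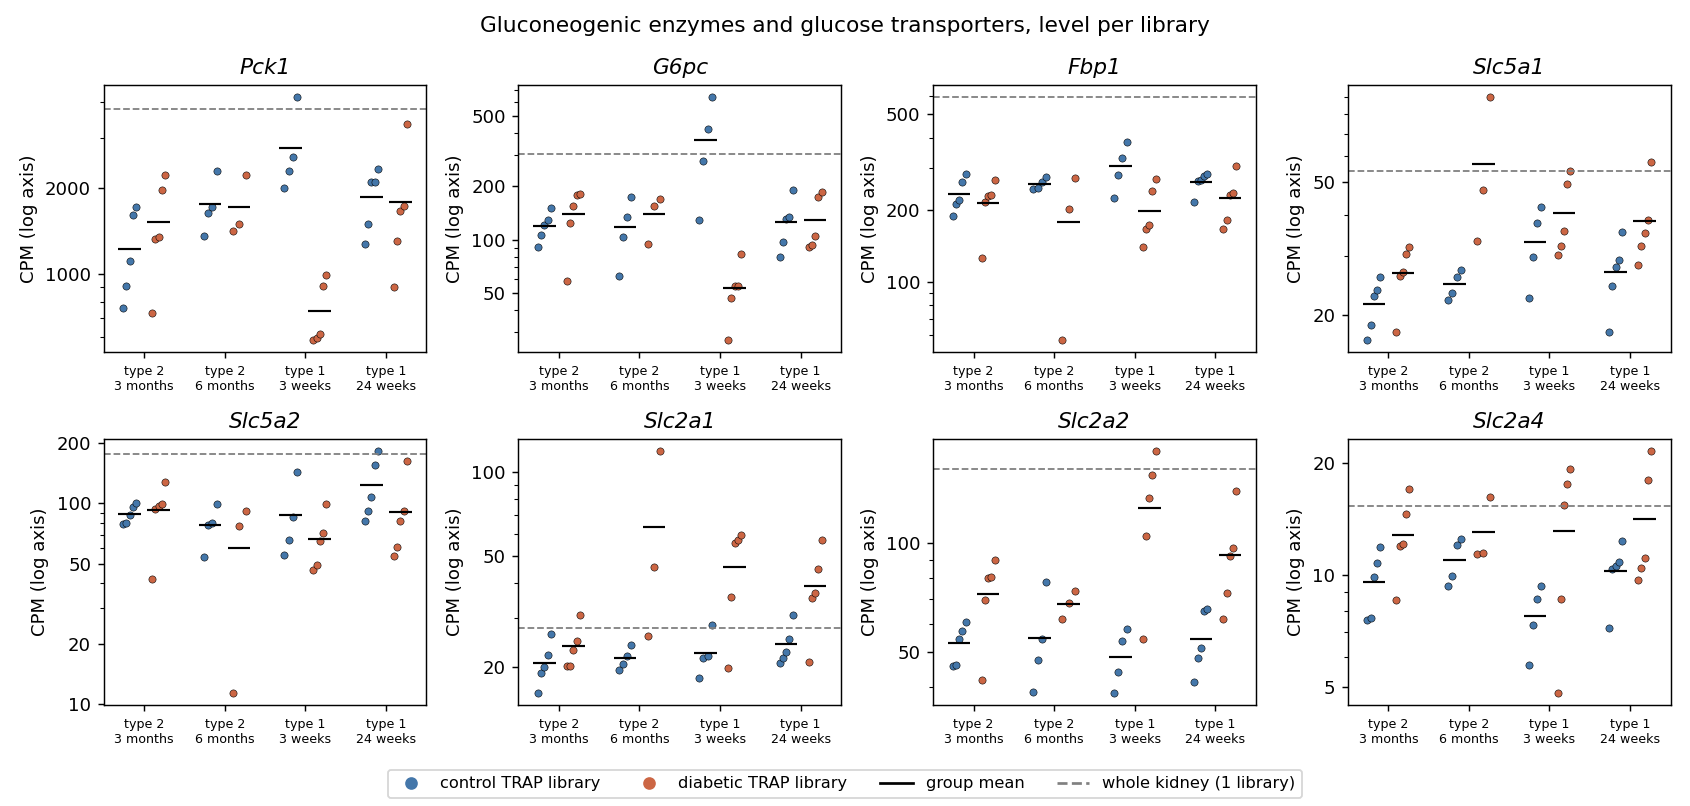
CPM on a log axis for each gene in the 36 TRAP libraries, by model and time, with points sorted by value within a group, a bar for the group mean and a dashed line for the single whole-kidney library. The lowest Pck1 and G6pc groups are the diabetic libraries of the type 1 model at 3 weeks, with means of 742 and 53.4 CPM.

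In the type 2 model at 3 months the question is which members differ early in diabetes on the eNOS-/- background. None of the 8 passed the test (edgeR adjusted p under 0.05), against 3.99% of 17180 genes, and none had an unadjusted p under 0.05, against 16.2%. DESeq2 and limma also called none. Pck1 was at 764, 911, 1110, 1716 and 1612 CPM in controls and at 1321, 1351, 1966, 729 and 2212 CPM in diabetic libraries (adjusted p = 0.772). The groups overlapped, and diabetic library 4 was below every control. G6pc was at 119 ± 23.0 and 140 ± 50.8 CPM (SD, n = 5 and 5; adjusted p = 0.88), and Fbp1 at 232 ± 37.4 and 212 ± 52.1 CPM (adjusted p = 0.809). Slc5a2 was at 88.8 ± 9.52 and 92.2 ± 31.3 CPM, with diabetic library 4 lowest at 41.9 CPM. The lowest p among members was that of Slc2a2, at 46.1, 45.9, 54.4, 57.4 and 60.8 CPM in controls and 80.0, 69.8, 80.9, 42.0 and 89.8 CPM in diabetic libraries (adjusted p = 0.382). Diabetic libraries 1, 2, 3 and 5 were above every control and library 4 was below every control. Slc2a1 ran from 16.0 to 26.3 CPM in controls and from 20.1 to 30.6 CPM in diabetic libraries, and Slc2a4 from 7.59 to 11.9 and from 8.54 to 17 CPM. The median log2 change of the members was 0.18, and that of all genes tested was 0.04. Proximal tubule markers were lower in the same libraries: 8 of 22 were called lower and none higher, and their sum was 12631 to 17374 CPM in controls and 5494 to 10607 CPM in diabetic libraries. Of 6 mesangial and smooth muscle markers 2 were called higher (sums of 92 to 124 and 148 to 750 CPM). Their part in the members' levels was not tested. TRAP measures bulk RNA, so fewer tubule cells in a sample and less RNA per tubule cell cannot be told apart.

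At 6 months of the type 2 model, RNA for SGLT1 and GLUT1 was called higher, but not without diabetic library 3. The enzymes of glucose synthesis were not called. Of 8 members 2 were called, a share near the 22.9% of 17180 genes called in either direction. Both were higher, where 11.2% of genes were called higher. Slc5a1 was at 27.3, 23.2, 25.9 and 22.2 CPM in controls and at 47.3, 33.2 and 90.3 CPM in diabetic libraries. All 3 diabetic libraries were above all 4 controls, as for 20.5% of the genes tested. Its log2 change was 0.95 (SE 0.25, adjusted p = 0.0133), between means of 24.6 ± 2.35 and 56.9 ± 29.7 CPM (SD, n = 4 and 3). Slc2a1 was at 19.4, 23.9, 20.4 and 21.9 CPM in controls and at 45.7, 25.9 and 119.5 CPM in diabetic libraries, again without overlap. Its means were 21.4 ± 1.97 and 63.7 ± 49.4 CPM, or 1.30 on the log2 scale (SE 0.31, adjusted p = 0.0071). Diabetic library 3 was the highest for both carriers. Without it the log2 change of Slc5a1 was 0.50 (adjusted p = 0.153) and that of Slc2a1 was 0.54 (adjusted p = 0.119), so no member was called. Fitted on these 2 groups alone, Slc5a1 had an adjusted p of 0.0514 and Slc2a1 of 0.0507.

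The other members overlapped between the groups at 6 months. Pck1 was at 1714, 1635, 1361 and 2298 CPM in controls and at 2219, 1499 and 1416 CPM in diabetic libraries (adjusted p = 0.627). G6pc ran from 62.0 to 174 and from 94.3 to 170 CPM (adjusted p = 0.983), Slc2a2 from 39.0 to 78.4 and from 61.8 to 73.8 CPM (adjusted p = 0.849), and Slc2a4 from 9.33 to 12.5 and from 11.4 to 16.3 CPM (adjusted p = 0.995). Fbp1 was at 273, 245, 246 and 260 CPM in controls and at 271, 202 and 57.1 CPM in diabetic libraries (adjusted p = 0.14). Slc5a2 was at 79.6, 99.0, 54.4 and 78.4 CPM and at 92.2, 77.5 and 11.3 CPM (adjusted p = 0.413). For Fbp1 and Slc5a2 the low value was that of diabetic library 3, the library in which Slc5a1 and Slc2a1 were highest. The median log2 change was 0.01 for the members and -0.01 for all genes tested. Podocyte and tubule markers moved in the same comparison. Of 12 podocyte markers 11 were called lower, with sums of 24232 to 29878 CPM (control) and 3398 to 16377 CPM (diabetic). Of 22 proximal tubule markers 17 were called lower and none higher, with sums of 11424 to 15534 and 4381 to 9543 CPM. With the tubule marker score as a covariate the log2 change of Slc5a1 was 0.56 (adjusted p = 0.72) and that of Slc2a1 was 0.12 (adjusted p = 0.957). With the podocyte score as a covariate they were -0.28 and -0.40 (adjusted p = 0.736 and 0.634). Scores and diabetes move together here, and their shares in the result cannot be told apart. Of 6 macrophage markers 3 were called higher (sums of 52 to 97 and 136 to 247 CPM), as were 3 of 6 mesangial and smooth muscle markers (85 to 133 and 184 to 630 CPM), and their part was not tested.

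At 3 weeks of the type 1 model, after STZ, RNA for the enzymes Pck1 and G6pc fell severalfold and RNA for GLUT2 rose. Without diabetic libraries 1 to 3 only G6pc was called, and with the tubule score as a covariate only Slc2a2. Of 8 members 4 were called, 3 lower and 1 higher, against 6.5% of 16279 genes called in either direction, 2.72% lower and 3.78% higher. G6pc was at 420, 636, 277 and 129 CPM in controls and at 82.8, 55.0, 55.1, 27.3 and 46.9 CPM in diabetic libraries. Every diabetic library lay below every control, as for 2.63% of the genes tested, although control library 4 was well under the other 3 controls. The mean was 366 ± 216 CPM in controls and 53.4 ± 19.98 CPM in diabetic libraries (SD, n = 4 and 5). The fit on TMM-scaled counts, whose folds are not the ratios of CPM means, gave a 7.78-fold fall (log2 change -2.96, SE 0.39, adjusted p = 0.000189). Pck1 was at 2286, 4160, 2565 and 1997 CPM in controls and at 911, 597, 619, 589 and 996 CPM in diabetic libraries, also without overlap. Its means were 2752 ± 967 and 742 ± 195 CPM, and the fitted change was a 4.09-fold fall (log2 change -2.03, SE 0.34, adjusted p = 0.00113).

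Fbp1, the middle enzyme, fell by less, and its call depended on single libraries. It was at 224, 329, 383 and 279 CPM in controls and at 269, 165, 173, 140 and 240 CPM in diabetic libraries, so the groups overlapped. The log2 change was -0.75 (SE 0.22, adjusted p = 0.0416), and the call was lost in 11 of 19 fits that left out 1 library, with adjusted p up to 0.132. It was also lost by limma on FPKM (adjusted p = 0.0797), in the fit of all 36 libraries (0.0821) and with only the 2 groups fitted (0.0776). Slc2a2 was at 38.5, 53.9, 58.0 and 44.1 CPM in controls and at 180, 133, 155, 54.3 and 105 CPM in diabetic libraries. All but diabetic library 4 were above every control. The means were 48.6 ± 8.90 and 125 ± 48.4 CPM, and the fitted change was a 2.31-fold rise (log2 change 1.21, SE 0.26, adjusted p = 0.00729). Slc2a1 was at 21.6, 28.2, 18.2 and 21.8 CPM in controls and at 55.5, 59.7, 57.0, 35.6 and 19.8 CPM in diabetic libraries. Its log2 change of 0.86 (SE 0.27) missed the threshold (adjusted p = 0.0629), and passed it by DESeq2 (adjusted p = 0.0312) and in the fit of all 36 libraries (adjusted p = 0.0442). The sodium-coupled carriers were not called: Slc5a1 ran from 22.4 to 42.3 and from 30.1 to 54.0 CPM (adjusted p = 0.812), and Slc5a2 from 55.6 to 144 and from 46.4 to 99.5 CPM (adjusted p = 0.358). Slc2a4 ran from 5.71 to 9.36 CPM in controls and from 4.80 to 19.3 CPM in diabetic libraries (adjusted p = 0.33). The median log2 change was -0.21 for the members and 0.00 for all genes tested.

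Control library 2, with a podocyte sum of 10898 CPM, held the highest Pck1 and G6pc values at 3 weeks. Diabetic libraries 1 to 3, which also had low podocyte sums, held the highest Slc2a2, Slc2a1 and Slc2a4 values. They stood apart in other measures: 19712 to 21050 genes were detected in them, against 14320 and 18044 in diabetic libraries 4 and 5 and 15558 to 16362 in controls, and Rn18s, the 18S ribosomal RNA gene, took 4.56 to 4.93% of counts, against 8.34 and 11.03% in libraries 4 and 5 and 6.49 to 11.2% in controls. Endothelial markers summed to 713 to 762 CPM in them, to 281 and 309 CPM in diabetic libraries 4 and 5, and to 237 to 555 CPM in controls. Loop, distal and collecting duct markers summed to 2641 to 2987 CPM, to 1581 and 1441 CPM, and to 1257 to 2413 CPM in the same order. The part of these differences was not tested. Without diabetic libraries 1 to 3 G6pc was the 1 member called (log2 change -3.32, adjusted p = 0.0287), while Pck1 was at -1.80 (adjusted p = 0.093) and Slc2a2 at 0.72 (adjusted p = 0.307). Without libraries 4 and 5 the log2 changes were -2.71, -2.15 and 1.5, with adjusted p of 0.00149, 0.00166 and 0.000404. Proximal tubule markers fell beside the enzymes: 12 of 22 were called lower and none higher, with sums of 12951 to 19650 CPM in controls and 6081 to 12420 CPM in diabetic libraries. With the tubule score as a covariate G6pc was at -1.77 (adjusted p = 0.096), Pck1 at -0.81 (adjusted p = 0.302) and Slc2a2 at 2.22 (adjusted p = 0.0029). Fbp1 was at 0.18 (adjusted p = 0.743) in that fit. Without Kap in the score, G6pc was at -1.73 (adjusted p = 0.038) and Pck1 at -0.89 (adjusted p = 0.144). The tubule score and diabetes move together here, and their shares in the result cannot be told apart. With the podocyte score as a covariate G6pc was at -3.09 (adjusted p = 0.000132) and Pck1 at -2.12 (adjusted p = 9.34e-05). In that fit Fbp1 was at -0.83 (adjusted p = 0.00674) and Slc2a2 at 0.98 (adjusted p = 0.000578). Of 6 macrophage markers 3 were called higher (sums of 36 to 76 and 70 to 235 CPM), as were 2 of 6 mesangial and smooth muscle markers (122 to 323 and 132 to 533 CPM). Their part was not tested.

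**Figure D3:**
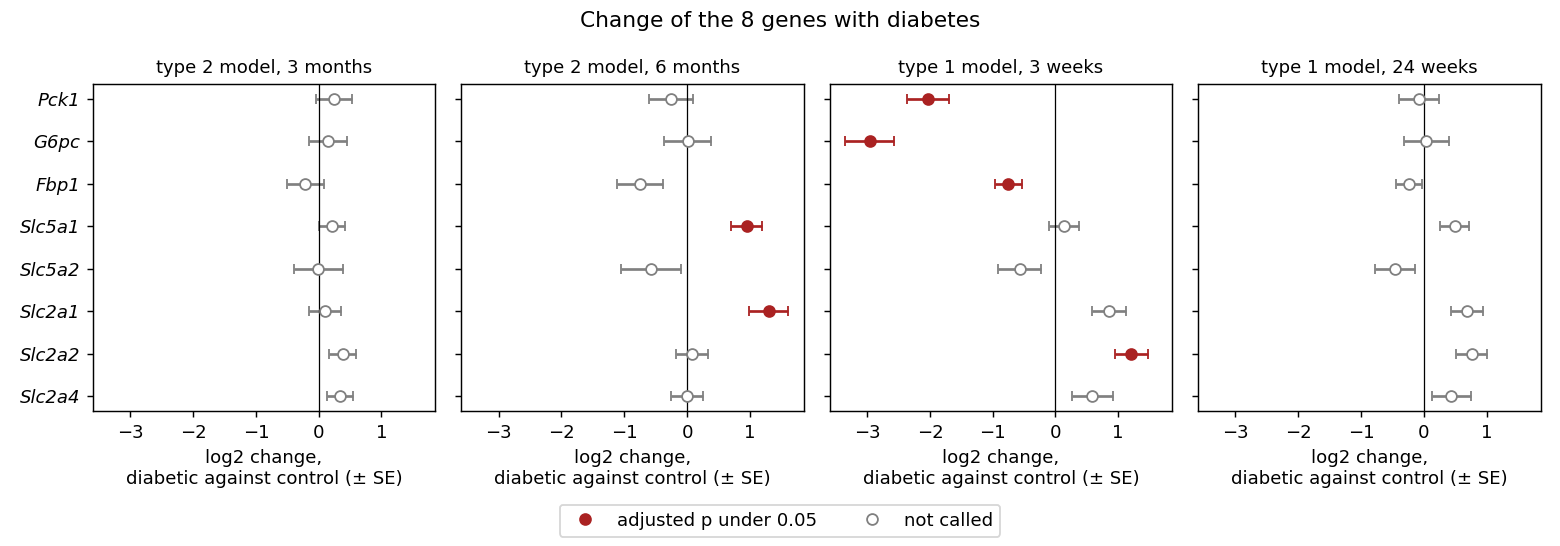
Log2 change of diabetic against control TRAP libraries with its standard error, for the 8 genes in the 4 comparisons, with filled red points where the adjusted p was under 0.05. Slc5a1 and Slc2a1 are called at 6 months of the type 2 model, and G6pc, Pck1, Fbp1 (lower) and Slc2a2 (higher) at 3 weeks of the type 1 model.

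At 24 weeks of the type 1 model no member was called, against 0.897% of 16279 genes, and the diabetic means of Pck1 and G6pc (1790.2 and 130 CPM) were close to those of controls (1861 and 126 CPM). DESeq2 and limma also called none, and 3 members had an unadjusted p under 0.05, against 10.7% of genes. Pck1 was at 2338, 2101, 2091, 1274 and 1499 CPM in controls and at 1660, 1726, 3360, 897 and 1307 CPM in diabetic libraries (adjusted p = 0.973). G6pc was at 134, 80.3, 191, 130 and 96.4 CPM and at 93.8, 173, 186, 90.4 and 105 CPM (adjusted p = 0.987). Both enzymes overlapped widely, with diabetic library 3 highest for Pck1. That library had the lowest podocyte sum of the type 1 model (5285 CPM) and was also the highest at 24 weeks for Slc2a2, Slc2a1, Slc5a1 and Slc2a4. The part of its podocyte content was not tested. Fbp1 ran from 215 to 281 and from 166 to 304 CPM (adjusted p = 0.798). Slc2a2 was at 41.4, 48.2, 64.9, 65.9 and 51.3 CPM in controls and at 96.8, 91.9, 139, 72.8 and 61.8 CPM in diabetic libraries. Diabetic libraries 1 to 4 were above every control (log2 change 0.76, SE 0.24, unadjusted p = 0.00472, adjusted p = 0.162). Slc2a1 had a log2 change of 0.69 (SE 0.26, adjusted p = 0.257), from 24.1 ± 4.04 to 39.0 ± 13.3 CPM (SD, n = 5 and 5). Slc5a1 had one of 0.49 (SE 0.23, adjusted p = 0.439), from 26.9 ± 6.55 to 38.3 ± 11.4 CPM. Slc5a2 was at 124 ± 43.4 and 90.2 ± 42.9 CPM (adjusted p = 0.702), and Slc2a4 at 10.3 ± 1.88 and 14.2 ± 5.34 CPM (adjusted p = 0.709). The median log2 change was 0.24 for the members and -0.01 for all genes tested. Here 3 of 22 tubule markers were called lower and none higher, with sums of 11564 to 17805 and 7441 to 11563 CPM. With the tubule score as a covariate Slc2a2 and Slc5a1 passed the threshold (log2 changes of 1.48 and 1.2, adjusted p = 0.0167 and 0.0339). With the podocyte score as a covariate they did not (0.35 and 0.15, adjusted p = 0.438 and 0.874), and Slc2a1 was at 0.33 (adjusted p = 0.674). The tubule score and diabetes move together here, and their shares in the result cannot be told apart.

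The early diabetic effect on G6pc and Pck1 differed between the models. The difference of the diabetic effects, type 2 at 3 months against type 1 at 3 weeks, was called for 2 of 8 members, both higher, against 0.94% of 18511 genes in either direction and 0.373% higher. It was 3.07 on the log2 scale for G6pc (SE 0.52, adjusted p = 0.00498) and 2.23 for Pck1 (SE 0.45, adjusted p = 0.012). The 3-week type 1 controls had the highest control mean of both genes. G6pc was at 366 CPM there and at 118 to 126 CPM in the other control groups. Pck1 was at 2752 CPM there and at 1222 to 1861 CPM in the others. The part of this control level in the difference was not tested. Both calls held in all 36 fits that left out 1 library and under all 7 other settings tried. The podocyte score, the tubule score without Kap and leaving out diabetic libraries 1 to 3 together were not tried on this difference. For Fbp1, the other enzyme, the difference was 0.52 (SE 0.37, adjusted p = 0.573) and was not called. For Slc2a2 it was -0.85 (SE 0.33, unadjusted p = 0.0151, adjusted p = 0.227) and for Slc2a1 it was -0.77 (SE 0.38, adjusted p = 0.358). The late effects differed for no member, against 0.438% of genes called, with adjusted p from 0.37 (Slc2a2) to 0.991 (G6pc), and none had an unadjusted p under 0.05, against 15.1% of genes. DESeq2 and limma called no member. The models also differ in genotype, in age at the late time, in the agent given and in how time is counted. Type 1 times are weeks of the model, and type 2 times are ages. These differences cannot be told apart.

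Within each model the diabetic effect was not shown to differ between times. For the type 2 model edgeR called 0% of genes for this difference, no member among them, while 18.9% of genes had an unadjusted p under 0.05. The difference, 6 against 3 months, was 1.2 for Slc2a1 (SE 0.41, adjusted p = 0.163) and 0.74 for Slc5a1 (SE 0.33, adjusted p = 0.242). Without diabetic library 2 at 6 months both passed (1.56 and 0.99, adjusted p = 0.0114 and 0.0462), although neither was called with all libraries, nor by DESeq2 or limma. In the type 1 model 0% of genes were called and 6.71% had an unadjusted p under 0.05. The difference, 24 against 3 weeks, was 3.00 for G6pc (SE 0.52, unadjusted p = 1.25e-05, adjusted p = 0.125) and 1.95 for Pck1 (SE 0.46, unadjusted p = 0.000361, adjusted p = 0.224). DESeq2 called both (adjusted p = 3.42e-05 and 0.00761), the fit of all 36 libraries called G6pc (adjusted p = 0.0249), and so did the fit without control library 4 at 3 weeks (adjusted p = 0.00738).

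The controls of the type 1 model were themselves not level in G6pc. The control mean was 366 ± 216 CPM at 3 weeks and 126 ± 42.5 CPM at 24 weeks (SD, n = 4 and 5; log2 change -1.67, SE 0.38, adjusted p = 0.0166), and G6pc was the 1 member called, against 3.7% of genes in either direction and 1.55% lower. Control libraries 1 to 3 at 3 weeks lay above all 5 controls at 24 weeks, and library 4, at 129 CPM, lay within their range. Without control library 2 at 3 weeks the call was lost (log2 change -1.22, adjusted p = 0.0659), as it was by limma (adjusted p = 0.0537) and with no filter on low counts (adjusted p = 0.0768). The mean of the 3-week diabetic libraries, 53.4 CPM, was also under that of the 24-week controls. Between 6- and 3-month controls of type 2, edgeR called 0% of genes and 3.14% had an unadjusted p under 0.05, no member among them. DESeq2 and limma called no member there.

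Ordered by mean level, most neighbouring groups did not differ beyond their spread. For G6pc the 3-week type 1 controls came first (366 ± 216 CPM) and the gap to the next group, the 6-month type 2 diabetic libraries (140 ± 40.3 CPM), exceeded the larger SD. The 3-week type 1 diabetic libraries came last for G6pc and Pck1, and for both the gap to the group above also exceeded the larger SD. For Slc2a1 the 3 groups of 6-month type 2, 3-week type 1 and 24-week type 1 diabetic libraries led, at 63.7, 45.5 and 39.0 CPM, and the gap under them exceeded the larger SD. All other gaps were smaller than the larger SD, and the ranges of neighbouring groups overlapped in every case. The 4 diabetic groups held the 4 highest means of Slc2a2 (67.9 to 125 CPM, against 48.6 to 54.9 CPM in controls) and of Slc2a4 (12.9 to 14.2 against 7.76 to 11 CPM). The 4 groups of each kind come from different models and times, so this order is a description.

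Levels were also taken relative to tubule marker RNA. As a percent of the summed 21 markers, Slc5a1, Slc2a1 and Slc2a2 were higher in every diabetic library than in every control library of its comparison, in all 4 comparisons. That held for 3 of 8 members and for 2.3% of the 15965 genes tested in both models. Slc2a2 went from 0.418 to 0.492% (controls) up to 0.832 to 1.08% (diabetic) in the type 2 model at 3 months, and was at 0.344 to 0.599 and 0.73 to 1.44% at 6 months. In the type 1 model it was at 0.295 to 0.409 and 0.902 to 1.70% at 3 weeks, and at 0.367 to 0.499 and 0.832 to 1.27% at 24 weeks. Slc5a1 had control medians of 0.183, 0.211, 0.234 and 0.223% and diabetic medians of 0.338, 0.551, 0.455 and 0.382% in the same order. Pck1 and G6pc were lower on this scale at 3 weeks after STZ, as were 0.461% of genes in every diabetic against every control library: Pck1 was at 16.1 to 22.8% against 6.44 to 11.6% (control against diabetic), and G6pc at 1.19 to 3.58 and 0.453 to 0.701%. At 3 months of the type 2 model the same 2 enzymes were higher per marker RNA, Pck1 at 8.16 to 13 and 14.4 to 25.7%, and G6pc at medians of 1.05 and 1.91%. On this scale 7 of 8 members were higher without overlap at 3 months of the type 2 model (17% of genes), 6 at 6 months (46.9%), 4 at 3 weeks of the type 1 model (22.6%) and 3 at 24 weeks (8.62%). Fbp1 was at a median of 2.16% in 3-week controls and 2.18% in diabetic libraries. The markers themselves changed with diabetes, so the ratio moves with them, and no test was made on it.

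**Figure D4:**
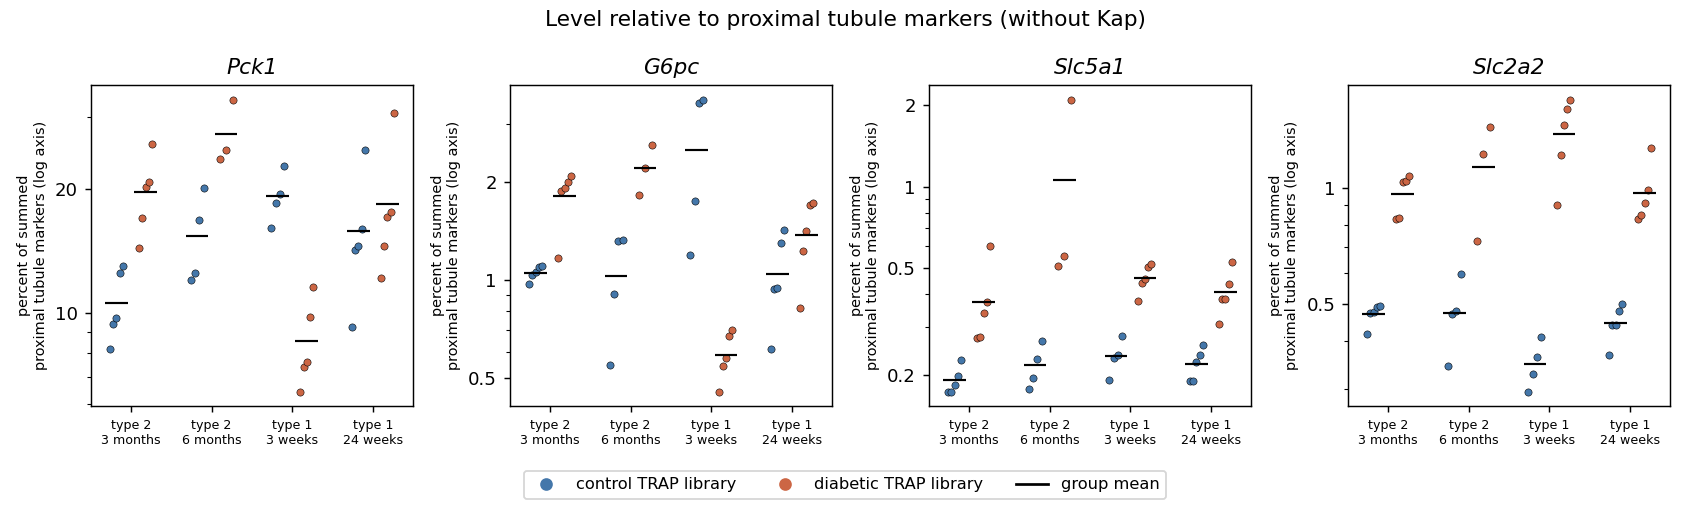
Level of Pck1, G6pc, Slc5a1 and Slc2a2 as a percent of the summed CPM of 21 proximal tubule markers (log axis) in each TRAP library, with bars for group means and points sorted by value. Slc5a1 and Slc2a2 are higher in all diabetic than in all control libraries of each comparison, and Pck1 and G6pc are lower without overlap at 3 weeks of the type 1 model.

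Related genes were read from 5 lists of pathway partners. Their calls come from the main fits and were not checked in the alternative fits. Among 15 other gluconeogenic and substrate-supply genes tested, 2 fell and 1 rose at 3 weeks of the type 1 model, with a median log2 change of 0.19. Over all genes tested 6.5% were called there in either direction, and the counts of the other lists at 3 weeks are to be read against the same share. Slc37a4, the transporter that brings glucose-6-phosphate to G6pc, fell from 91.7 to 57.5 CPM (log2 change -0.83, SE 0.25, adjusted p = 0.0434). Pcx, pyruvate carboxylase, the entry step from pyruvate, fell from 396 to 248 CPM (log2 change -0.82, SE 0.23, adjusted p = 0.034). Fbp2, the muscle-type isoform of fructose-1,6-bisphosphatase, rose from 3.43 to 19.4 CPM (log2 change 2.36, SE 0.48, adjusted p = 0.00484), opposite to Fbp1. Of 18 regulators 1 was called at 3 weeks: Ppara, a nuclear receptor of the fasting response, fell by 1.10 on the log2 scale (adjusted p = 0.0135) without overlap between the groups. Among 10 transporter partners 1 was called: Stx4a, a syntaxin of GLUT4 vesicle fusion, fell by 0.61 on the log2 scale (adjusted p = 0.016). In this comparison 12 of 22 proximal tubule markers were also called lower and none higher, and their part in the listed genes was not tested.

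At 6 months of the type 2 model 4 of 15 other gluconeogenic genes rose and 1 fell (median log2 change -0.17), where 22.9% of all genes were called in either direction and 11.2% higher. Those that rose included Glud1, glutamate dehydrogenase (log2 change 0.58, adjusted p = 0.0136), and the glutamine carrier Slc38a3 (1.07, adjusted p = 0.00348). The glycerol kinase gene Gk was lower (log2 change -0.74, adjusted p = 0.0196), as it was at 3 months (-0.70, adjusted p = 0.0295). Among 18 regulators 2 rose and 2 fell, a share near that 22.9%. The insulin receptor substrates Irs1 (log2 change -0.88, adjusted p = 0.0192) and Irs2 (-1.07, adjusted p = 0.0118) fell, and the CREB coactivator Crtc2 (0.41, adjusted p = 0.0364) and the glucose-responsive gene Txnip (0.68, adjusted p = 0.0404) rose. None of 10 transporter partners was called there, and 4 had an unadjusted p under 0.05.

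Other carriers of the same families moved in both directions in the main fits, and their calls were not checked in the alternative fits. At 6 months of the type 2 model 2 of 8 other facilitative carriers rose and 1 fell (median log2 change 0.38), against the same 22.9%. Slc2a9, a urate carrier, rose from 6.36 to 18.6 CPM (log2 change 1.29, adjusted p = 0.00561), and at 3 weeks of the type 1 model from 4.58 to 13.4 CPM (1.37, adjusted p = 0.0164). Slc2a3, GLUT3, rose from 0.400 to 5.98 CPM (3.62, SE 1.00, adjusted p = 0.015), and Slc2a12, GLUT12, fell from 16.0 to 4.71 CPM (-1.95, adjusted p = 0.00266). Slc5a10, a sodium-coupled sugar carrier, rose at 6 months of the type 2 model (0.92, adjusted p = 0.00822) and at 24 weeks of the type 1 model (1.06, adjusted p = 0.0285), in each case the 1 called among 8 and 7 other Slc5a genes tested, where 22.9% and 0.897% of all genes were called. At 3 weeks, 1 of 7 rose and 1 fell: Slc5a11, an inositol carrier (0.77, adjusted p = 0.0383), and Slc5a12, a lactate carrier (-0.84, adjusted p = 0.0489). At 3 months of the type 2 model Slc5a8, a monocarboxylate carrier, was the 1 of 8 called, with a log2 change of -0.93 (adjusted p = 0.00239), where 3.99% of all genes were called. In the 4 diabetic comparisons, lists not mentioned held no called gene.

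Across the 36 TRAP libraries the members formed loose groups, given here as a description because libraries share depth, group and tubule content. Pearson's r of log2 CPM was 0.81 between Pck1 and G6pc, 0.79 between Fbp1 and Slc5a2, and 0.77 between Slc5a1 and Slc2a1. It was -0.15 between Pck1 and Slc2a2 and -0.13 between G6pc and Slc2a2. Among 13982 genes the closest to Pck1 were Ppara (0.829), Slc37a4 (0.807) and Sephs2 (0.804), and the closest to G6pc were Slc37a4 (0.784), Sephs2 (0.753) and Slc5a12 (0.744). Among the genes closest to Fbp1 were Dnase1 (0.90) and Aldh4a1 (0.892). Slc5a2 was closest to the phosphate carriers Slc34a3 (0.885) and Slc34a1 (0.851) and to Olfm4 (0.846). The nearest to Slc5a1 were Sorl1 (0.902), Lamb1 (0.868) and Ralgapa2 (0.866), and to Slc2a1 they were Ctsd (0.914), Ccdc88c (0.905) and Ppl (0.888). Slc2a2 was nearest to Cdk18 (0.869), Car2 (0.86) and Ccnd1 (0.836). Slc2a4 was nearest to the fructose carrier Slc2a5 (0.801), Nptx1 (0.753) and Sostdc1 (0.733).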

How the data were processed

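Podocyte TRAP RNA (36 libraries) and total kidney RNA (1 library) were sequenced after a NuGEN mouse kit, per the labels. The authors deposited raw counts per gene and FPKM, and per the submitters' processing notes used STAR, featureCounts 1.15.2, cutadapt 1.16 and FastQC. These deposited FPKM equal the count scaled by gene length and library total. The notes name mm9, but the members' coordinates are those of GRCm38. The tests were run on the counts in edgeR 4.0.16 under R 4.3.3 (TMM, default filter by group, robust quasi-likelihood F tests, Benjamini-Hochberg at 0.05) on 17 type 2, 19 type 1 or all 36 TRAP libraries (17180, 16279 and 18511 genes). Called genes have an adjusted p below that level. CPM is the count scaled to the library's total. Kidney ratios use CPM plus 0.5. Reads carry no molecular identifiers. No 2 TRAP libraries were identical. Same-numbered libraries did not deviate together (r from -0.09 to 0.18), so numbers were not used as pairs.

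The members, lists and tests were chosen with earlier results of these data known. Named are the 8 members and, for each, the 3 genes with the highest r (mean CPM of at least 1, prior count 2). Also named are called genes of the 5 related lists (at most 4 per list and comparison), and Nphs1, Wt1, Podxl and Lepr. Nos3, Kap, Rn18s and overlapping genes are named outside this rule. Some genes that the rule names are not reported here. A member's log2 change is given in the text where its unadjusted p was under 0.05, and also for Fbp1 in the early difference between the models. Alternatives were DESeq2 1.42.0, RLE factors, other filters, limma 3.58.1 on log2 of FPKM plus 0.1, other sets of libraries, a replicate block, the tubule score, each library left out, and, chosen after seeing the data, the podocyte score, the tubule score without Kap and the libraries that stand apart. Steps were tested on simulated data. Plots were drawn with matplotlib 3.10.9.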

Additional observations from a re-analysis of the deposited data

Results flagged for a closer look

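Of 56 combinations of a member and a group of 4 or more TRAP libraries, 1 held a library far from the others: Fbp1 in control library 1 of the type 1 model at 24 weeks was at 215.4 CPM, while the other 4 controls were at 264 to 281 CPM. By chance about 1 group in 20 would be marked in this way. The early diabetic effect differed between the models for 2 members by a test of the difference itself. The difference, type 2 at 3 months against type 1 at 3 weeks, was 2.23 on the log2 scale for Pck1 and 3.07 for G6pc (edgeR adjusted p = 0.012 and 0.00498). For both genes the 3-week type 1 controls held the highest control mean, and the part of this was not tested.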

How the results depend on the processing

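At 6 months of the type 2 model the count of called members was 2, and it was 0 with the tubule score, with the tubule score without Kap, with the podocyte score, and with only the 2 groups fitted; leaving out each library gave 0 to 3. The podocyte score turned the sign of Slc2a1 (-0.40) and Slc5a1 (-0.28). In the type 1 model at 3 weeks the count was 4, and it was 1 with the tubule score, 3 without Kap in the score, 1 without diabetic libraries 1 to 3 and 6 without diabetic libraries 4 and 5; leaving out each library gave 3 to 5. The tubule score turned the sign of Fbp1 (0.18, and 0.07 without Kap in the score). At 24 weeks the count of 0 became 2 with the tubule score, and 2 without Kap in the score. For the difference between times in the type 1 model the count of 0 became 2 by DESeq2 and 1 in the fit of all 36 libraries, and leaving out each library gave 0 to 1. For type 2 that difference gave 0 to 2 when each library was left out. For 24 against 3 weeks in type 1 controls the count of 1 became 0 with no filter, 0 by limma, and 0 to 1 when each library was left out. The cause was not tested. The early difference between the models gave 2 in every fit tried. The podocyte score, the tubule score without Kap and leaving out the libraries that stand apart together were not tried on it. With the replicate block the counts in the 4 diabetic comparisons were 0, 2, 5 and 0, the added call being Slc2a1 at 3 weeks (log2 change 0.91, adjusted p = 0.0305). Same-numbered libraries share only a number. The median ratio of kidney to TRAP was 2.39 to 2.58 when each TRAP library was left out. The lowest count of a member was 70. The library with the fewest counts, diabetic library 3 at 6 months of type 2, is the one without which no member was called there, and the part of depth was not tested.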
